A study of Homo sapiens with 6 samples.

Results

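The interferon-stimulated genes are genes that cells switch on when an interferon, or a viral nucleic acid sensed inside the cell, signals to the nucleus. 57 genes chosen by symbol were read from a table of 60835 loci made from 6 RNA-seq libraries of ARPE-19, an established line of the human retinal pigment epithelium that the labels call wild type. 3 libraries came from cells kept 72 h in high glucose medium and 3 from cells kept 72 h in normal glucose medium. The submitters describe the high glucose culture as a model of cell loss, and the labels give neither the glucose concentrations nor whether the libraries of a group were separate cultures. Every p-value therefore reflects the scatter among these libraries alone, and that scatter may be technical. All 57 symbols were found, in 56 loci, because IFITM1 and IFITM2 share 1 locus of the table. 54 of the 56 loci passed the filter on low counts, and MX2 and XAF1 did not.

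Interferon receptors on the cell surface activate the kinases JAK1 and TYK2, which phosphorylate STAT2. With IRF9 it is part of a complex that binds a short DNA sequence, the interferon-stimulated response element, in front of its target genes. Many of the target genes encode proteins that detect viral RNA, degrade it, block its translation or tag viral proteins, and others, such as USP18, damp the signal. In the retinal pigment epithelium, which forms the outer blood-retina barrier, such genes are part of the innate defence that this cell layer shares with other epithelia.

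Most of the members that changed rose in high glucose. At an adjusted p under 0.05 in edgeR's quasi-likelihood test with Benjamini-Hochberg adjustment over all 25025 tested loci, 23 of the 54 member loci rose, where 9.75% of all tested loci rose. 2 members, HERC5 and STAT2, fell, where 9.86% of all tested loci fell, and 29 were not called. In a fit of loci with a protein-coding transcript alone, 24 members rose and 2 fell, where 14.2% of the loci rose and 14.6% fell. The median log2 change was 0.66 over the 54 member loci and 0.00 over all tested loci. In 34 member loci every high glucose library lay above every normal glucose library, which held for 21.8% of all tested loci. 48 of the 54 estimates were above 0, which was so for 49.8% of all tested loci. The members were chosen with earlier results of these data known, so these shares describe the list and do not test it. High glucose 1 and normal glucose 3 were often the highest libraries of their groups, and values without them are given where the fold moved by over 1.5 times or the call changed. Levels are in CPM, which scales each count to the size of its library, and changes are log2 of high over normal glucose. In bulk RNA, more cells that express a gene and more RNA of that gene per cell cannot be told apart.

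**Figure D1:**
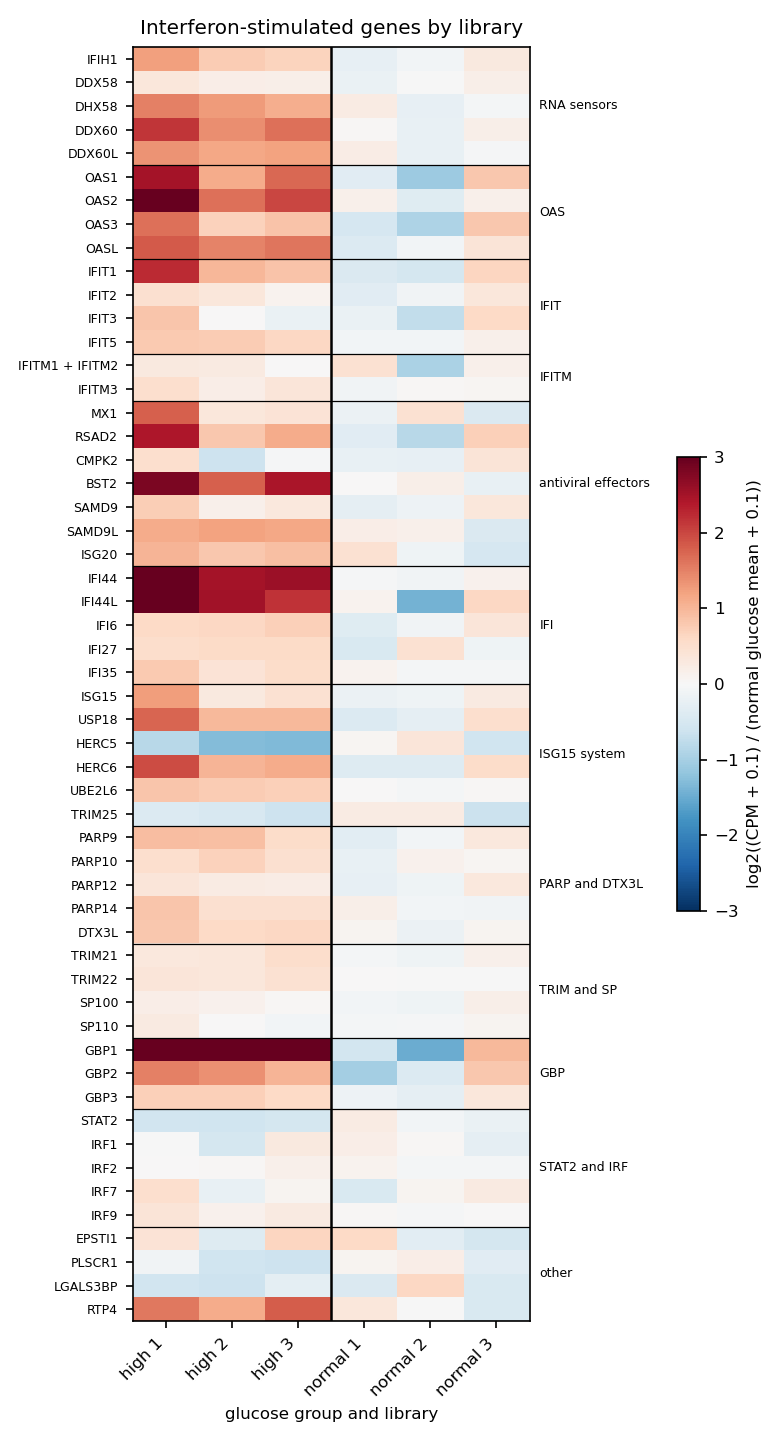
Each row is a member locus and each column a library, with high glucose on the left; colour gives log2 of the ratio of CPM plus 0.1 to the normal glucose mean plus 0.1, and colours saturate at 3 and -3. Most rows are red in the 3 high glucose columns, and the first of these is the darkest in many rows, OAS2, IFI44L and IFIT1 among them.

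The response element was searched for in the sequence around the members' start sites, since it is the DNA feature that defines the pathway. RefSeq promoter windows (build GRCh38.p14), each reaching from 250 bases before a transcription start to 50 bases after it, were matched for 44 of the 57 members. The core of the element was searched on both strands as GAAA, 2 bases of any kind and GAAA, and overlapping matches were counted. It was present in a window of 31 of the 44 members (70.5%) and of 1195 of all 27305 genes with a window (4.38%). A second motif, the gamma-activated site TTCNNNGAA, which reads the same on both strands, was present for 14 of the 44 members (31.8%) and 9.38% of all genes. The following 30-base stretches belong to called members with large changes, to members that lie next to each other, to HERC5, which fell, and to ISG15. OAS2 and OASL (log2 changes 2.85 and 1.86) had no window. RSAD2 (1.80, not called) had a match that is not listed. Each is written 5′ to 3′ on the strand that reads the GAAA repeat, with the match in capitals, and HERC5, ISG15, BST2, DDX60L and RTP4 hold further matches that are not listed.

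IFI44 (chr1:78649761-78649790, minus strand): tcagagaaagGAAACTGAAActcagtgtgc
IFI44L (chr1:78620365-78620394, plus strand): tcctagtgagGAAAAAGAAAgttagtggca
IFI44L, upstream copy (chr1:78620274-78620303, plus strand): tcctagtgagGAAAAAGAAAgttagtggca
GBP1 (chr1:89065316-89065345, plus strand): agagtaatatGAAACTGAAAgtacttcgtt
GBP3 (chr1:89022845-89022874, plus strand): agagcctaatGAAACTGAAAgtacttcttt
BST2 (chr19:17405741-17405770, minus strand): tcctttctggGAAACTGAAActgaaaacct
DDX60 (chr4:168318821-168318850, minus strand): gtgctgaaggGAAACTGAAAcctaagtgct
DDX60, second site (chr4:168318786-168318815, minus strand): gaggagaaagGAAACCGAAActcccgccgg
DDX60L (chr4:168480523-168480552, minus strand): gtggagaaaaGAAACCGAAActaactccct
RTP4 (chr3:187368357-187368386, plus strand): accgaacaccGAAACTGAAActgtttgtct
DTX3L and PARP9, shared site (chr3:122564322-122564351, plus strand): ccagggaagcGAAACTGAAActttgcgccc
HERC5 (chr4:88457035-88457064, minus strand): agctccagtgGAAAACGAAAcataatgttt
ISG15 (chr1:1013380-1013409, plus strand): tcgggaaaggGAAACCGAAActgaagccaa

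The same 10 letters, GAAACTGAAA, stand in capitals for IFI44, GBP1, GBP3, BST2, RTP4, the first DDX60 site and the site that DTX3L and PARP9 share. They are not particular to members that rose, since most listed sites were taken from called members. Among the members not listed, IFIT3, IFITM1, ISG20, OAS3, RSAD2, SAMD9 and TRIM21 hold the same letters and were not called. IFIT5 holds them too and rose. PARP9 and DTX3L are transcribed away from each other, and both windows hold that site. In IFI44L the same 30 bases occur at both positions. The windows upstream of IFI44 and BST2 are given whole, because these are the members that also passed a test for a log2 change above 1. In the first the match lies close to the start and reads on the minus strand, so that TTTCAGTTTC is in capitals. In BST2 a pair of overlapping matches form 1 run of 16 letters.

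IFI44 promoter (chr1:78649539-78649788, plus strand): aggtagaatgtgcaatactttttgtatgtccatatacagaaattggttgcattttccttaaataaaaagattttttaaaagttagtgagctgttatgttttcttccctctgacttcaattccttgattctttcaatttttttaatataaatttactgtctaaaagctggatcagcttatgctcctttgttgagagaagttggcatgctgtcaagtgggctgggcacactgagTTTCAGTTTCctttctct
BST2 promoter (chr19:17405631-17405880, minus strand): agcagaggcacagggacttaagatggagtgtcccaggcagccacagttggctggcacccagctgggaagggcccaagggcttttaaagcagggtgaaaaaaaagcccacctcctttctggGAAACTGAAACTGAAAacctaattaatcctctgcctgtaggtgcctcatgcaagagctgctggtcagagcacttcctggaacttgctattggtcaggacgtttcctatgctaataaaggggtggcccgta

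Members with and without the element are set side by side as a description, and whether these sets differ was not tested. Among all tested loci 9.75% rose and 9.86% fell, and the shares among all genes with or without the element were not counted. Of the 31 tested loci with a match, 13 rose and 1 fell, with a median log2 change of 0.73 and a range of -1.15 to 3.39. Of the 12 tested loci with a window but no match, 4 rose and 1 fell, with a median of 0.19 and a range of -0.57 to 2.0. The largest estimate among those without a match was that of OAS1, which was not called. A match is a run of letters and not evidence of a bound factor, and the window leaves out more distant sites.

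**Figure D2:**
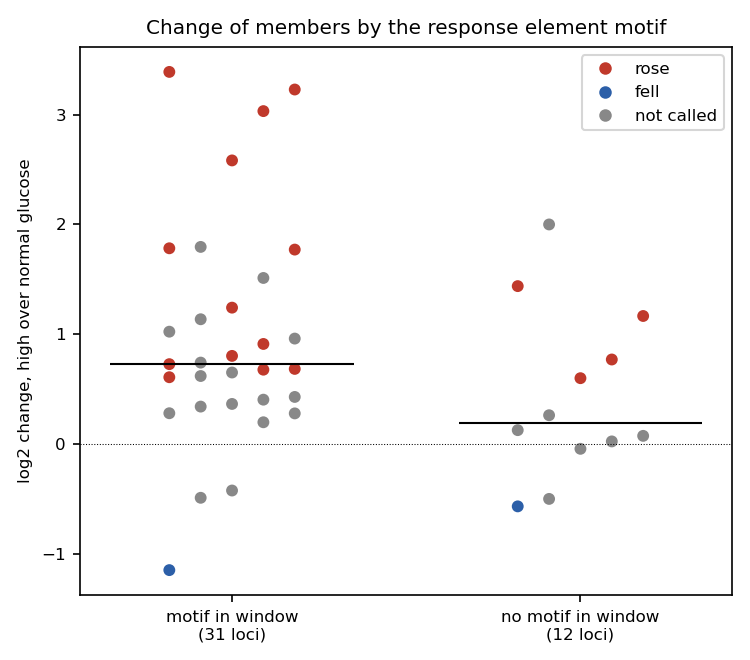
Each point is a tested member locus with a promoter window; the vertical axis is the log2 change of high over normal glucose, the columns separate loci with the response element core in a window (31) from those without (12), and lines mark the medians, 0.73 and 0.19. Points above 2.5 occur in the left column, and both columns hold points that rose, fell and were not called. OAS2 (2.85) had no window and is not shown.

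Levels of the members spanned a wide range. On the deposited FPKM scale, which corrects for length, IFITM3 had the highest mean over the 6 libraries (147), followed by LGALS3BP (63.5), UBE2L6 (20.9), ISG15 (18.9), STAT2 (16.9) and IFI6 (15.9). OAS1, OAS2, OASL, RSAD2, ISG20, CMPK2, IFI27, IFI44L, GBP2, EPSTI1 and RTP4 had means under 0.5 FPKM. MX2, a dynamin-like restriction factor, had a count of 0 in all 6 libraries, which allows up to 12 counts per library or 0.135 to 0.146 CPM. XAF1, a pro-apoptotic interferon target, had 8 counts in high glucose 1 and 0 in the other libraries.

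The cytosolic RNA sensors and their relatives rose in 4 of 5 cases. DDX60, a helicase related to the RNA sensors, had 34.3, 20.2 and 24.4 CPM in high glucose 1, 2 and 3, against 7.85, 6.5 and 8.59 CPM in normal glucose 1, 2 and 3. It rose 3.44-fold (log2 change 1.78, SE 0.229, edgeR adjusted p = 0.00493). DDX60L, its neighbouring paralog, had 119, 105 and 108 CPM in high glucose 1, 2 and 3, against 54.5, 40.2 and 45.7 CPM in normal glucose 1, 2 and 3. The groups stood far apart, and DDX60L rose 2.37-fold (log2 change 1.24, SE 0.139, edgeR adjusted p = 0.00332). Its locus overlaps that of PALLD on the opposite strand, and the log2 change of PALLD was 0.12 (edgeR adjusted p = 0.455). DHX58, which encodes LGP2, a regulator of the RNA sensors, had 17.5, 14.8 and 13.1 CPM in high glucose 1, 2 and 3, against 7.27, 5.13 and 5.89 CPM in normal glucose 1, 2 and 3 (log2 change 1.31, SE 0.195, edgeR adjusted p = 0.00736). IFIH1, which encodes the long double-stranded RNA sensor MDA5, had 32.9, 23.7 and 22.4 CPM in high glucose 1, 2 and 3, against 11.7, 13.1 and 17.1 CPM in normal glucose 1, 2 and 3 (log2 change 0.91, SE 0.213, edgeR adjusted p = 0.0269). Every high glucose library of these 4 genes was above every normal glucose library. This held for every member that rose and for 21.8% of all tested loci. DDX58, which encodes RIG-I and shares its locus with TOPORS, had 99.7, 89.5 and 88.2 CPM in high glucose 1, 2 and 3, against 68.6, 77.2 and 89.2 CPM in normal glucose 1, 2 and 3 and was not called (log2 change 0.24, edgeR adjusted p = 0.233); normal glucose 3 lay among the high glucose libraries.

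The OAS proteins make 2′-5′ oligoadenylates from ATP when they bind double-stranded RNA, which activates RNase L. OAS2 had 5.58, 1.54 and 1.98 CPM in high glucose 1, 2 and 3, against 0.474, 0.303 and 0.481 CPM in normal glucose 1, 2 and 3. High glucose 1 was well above the other libraries, all 3 high glucose values were above the normal glucose values, and OAS2 rose 7.22-fold (log2 change 2.85, SE 0.551, edgeR adjusted p = 0.0152). Without high glucose 1 its log2 change was 2.07 (edgeR adjusted p = 0.0364). OASL, a family member that has lost the synthetase activity, had 1.79, 1.38 and 1.51 CPM in high glucose 1, 2 and 3, against 0.3, 0.396 and 0.589 CPM in normal glucose 1, 2 and 3 and rose (log2 change 1.86, SE 0.337, edgeR adjusted p = 0.0126). OAS1 had 5.74, 2.12 and 3.33 CPM in high glucose 1, 2 and 3, against 0.716, 0.385 and 1.7 CPM in normal glucose 1, 2 and 3 and was not called (log2 change 2.0, edgeR adjusted p = 0.0572). OAS3, with the highest FPKM of the 4, had 76.7, 39.1 and 43.7 CPM in high glucose 1, 2 and 3, against 17.1, 12.8 and 42.7 CPM in normal glucose 1, 2 and 3 (log2 change 1.14, edgeR adjusted p = 0.142). The groups of OAS3 overlapped, since normal glucose 3 was above high glucose 2. Without normal glucose 3 alone, OAS1 had an estimate of 2.76 and OAS3 one of 1.83 (edgeR adjusted p = 0.0132 and 0.0107). For OAS1 and OAS3 normal glucose 3 was 3.08 and 2.86 times the mean of normal glucose 1 and 2. Without high glucose 1 and normal glucose 3, a fit chosen after the values were seen, their log2 changes were 2.31 and 1.48 (edgeR adjusted p = 0.027 and 0.01).

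Of the IFIT genes, whose proteins bind foreign RNA ends and hold back their translation, IFIT5 rose and the other 3 were not called. IFIT5 had 62.2, 61.2 and 55.4 CPM in high glucose 1, 2 and 3, against 33.8, 34 and 40.2 CPM in normal glucose 1, 2 and 3 (log2 change 0.73, SE 0.119, edgeR adjusted p = 0.00926). IFIT1 had 52.1, 22.2 and 20.1 CPM in high glucose 1, 2 and 3, against 8.18, 7.63 and 17.3 CPM in normal glucose 1, 2 and 3 (log2 change 1.51, edgeR adjusted p = 0.063), with every high glucose library above normal glucose. IFIT3 had 37.1, 21.2 and 18.1 CPM in high glucose 1, 2 and 3, against 18.3, 12.6 and 32 CPM in normal glucose 1, 2 and 3 (log2 change 0.28, edgeR adjusted p = 0.664), and normal glucose 3 was above high glucose 2 and 3. IFIT2 had an estimate of 0.32 on the log2 scale (edgeR adjusted p = 0.329). IFIT1, IFIT2 and IFIT3 overlap the LIPA locus on the opposite strand, and LIPA had an estimate of 0.52 on the log2 scale (edgeR adjusted p = 0.136). The IFITM proteins, which hinder the entry of viruses through membranes, were not called. IFITM3 had 257, 210.1 and 234 CPM in high glucose 1, 2 and 3, against 169, 185 and 191 CPM in normal glucose 1, 2 and 3 (log2 change 0.36, edgeR adjusted p = 0.064). The joint locus of IFITM1 and IFITM2 had 18.6, 18.1 and 15.3 CPM in high glucose 1, 2 and 3, against 20.8, 7.76 and 16.9 CPM in normal glucose 1, 2 and 3 (log2 change 0.20, edgeR adjusted p = 0.719), and reads of the 3 similar genes may have been divided unevenly among them.

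Among the other antiviral effectors, BST2 and SAMD9L rose and 5 tested genes were not called. BST2, or tetherin, which holds budding virus particles at the membrane, had 5.16, 2.48 and 3.97 CPM in high glucose 1, 2 and 3, against 0.647, 0.746 and 0.541 CPM in normal glucose 1, 2 and 3. It rose 5.99-fold (log2 change 2.58, SE 0.332, edgeR adjusted p = 0.00493), with no overlap between the groups. SAMD9L, a restriction factor of poxviruses, had 37.4, 40.0 and 38.5 CPM in high glucose 1, 2 and 3, against 19.8, 19.2 and 12.7 CPM in normal glucose 1, 2 and 3 and rose 2.24-fold (log2 change 1.17, SE 0.186, edgeR adjusted p = 0.00864). Its relative SAMD9, on the same chromosome, had 14.4, 9.56 and 10.7 CPM in high glucose 1, 2 and 3, against 7.14, 7.67 and 11 CPM in normal glucose 1, 2 and 3 (log2 change 0.43, edgeR adjusted p = 0.249). MX1, a dynamin-like GTPase that blocks influenza virus in human cells, had 26.3, 9.61 and 9.96 CPM in high glucose 1, 2 and 3, against 6.63, 10.4 and 5.57 CPM in normal glucose 1, 2 and 3 (log2 change 1.02, edgeR adjusted p = 0.152). High glucose 1 was 2.69 times the mean of high glucose 2 and 3, and these 2 libraries lay within the range of normal glucose. The MX1 estimate was 0.38 without high glucose 1 (edgeR adjusted p = 0.473) and 0.21 without high glucose 1 and normal glucose 3. RSAD2, which encodes the radical enzyme viperin, had 3.52, 1.08 and 1.36 CPM in high glucose 1, 2 and 3, against 0.427, 0.28 and 1.01 CPM in normal glucose 1, 2 and 3 (log2 change 1.80, edgeR adjusted p = 0.0893). Its estimate was 1.10 without high glucose 1 (edgeR adjusted p = 0.288) and 2.49 without normal glucose 3 (edgeR adjusted p = 0.0318). CMPK2, a nucleotide kinase that overlaps RSAD2 on the opposite strand, had an estimate of 0.02 on the log2 scale (edgeR adjusted p = 0.975), and ISG20, an exonuclease, one of 0.96 (edgeR adjusted p = 0.0707).

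The largest changes of all members were those of IFI44L, GBP1, IFI44, OAS2 and BST2. IFI44 and IFI44L are neighbouring paralogs on chromosome 1, where the table gives IFI44 from 78649796 to 78664078 on the plus strand with no genome build named. IFI44 had 10.1, 5.26 and 5.48 CPM in high glucose 1, 2 and 3, against 0.82, 0.781 and 0.938 CPM in normal glucose 1, 2 and 3. The lowest high glucose value was several times the highest normal glucose value, and IFI44 rose 8.18-fold (log2 change 3.03, SE 0.319, edgeR adjusted p = 0.00293). IFI44L had 22, 6.69 and 5.23 CPM in high glucose 1, 2 and 3, against 1.18, 0.338 and 1.72 CPM in normal glucose 1, 2 and 3. It rose 10.5-fold (log2 change 3.39, SE 0.761, edgeR adjusted p = 0.0238), with a log2 change of 2.47 without high glucose 1. IFI35, a small leucine zipper protein, had 13.3, 10.3 and 11.3 CPM in high glucose 1, 2 and 3, against 8.33, 7.33 and 7.37 CPM in normal glucose 1, 2 and 3 and rose (log2 change 0.60, SE 0.162, edgeR adjusted p = 0.0424). IFI6, a membrane protein that counters viral replication at the endoplasmic reticulum, had 19.5, 19.9 and 20.9 CPM in high glucose 1, 2 and 3, against 9.96, 12 and 16.5 CPM in normal glucose 1, 2 and 3 and was not called (log2 change 0.65, edgeR adjusted p = 0.0612), although its groups did not overlap. IFI27, a small mitochondrial protein, had an estimate of 0.62 on the log2 scale (edgeR adjusted p = 0.25).

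**Figure D3:**
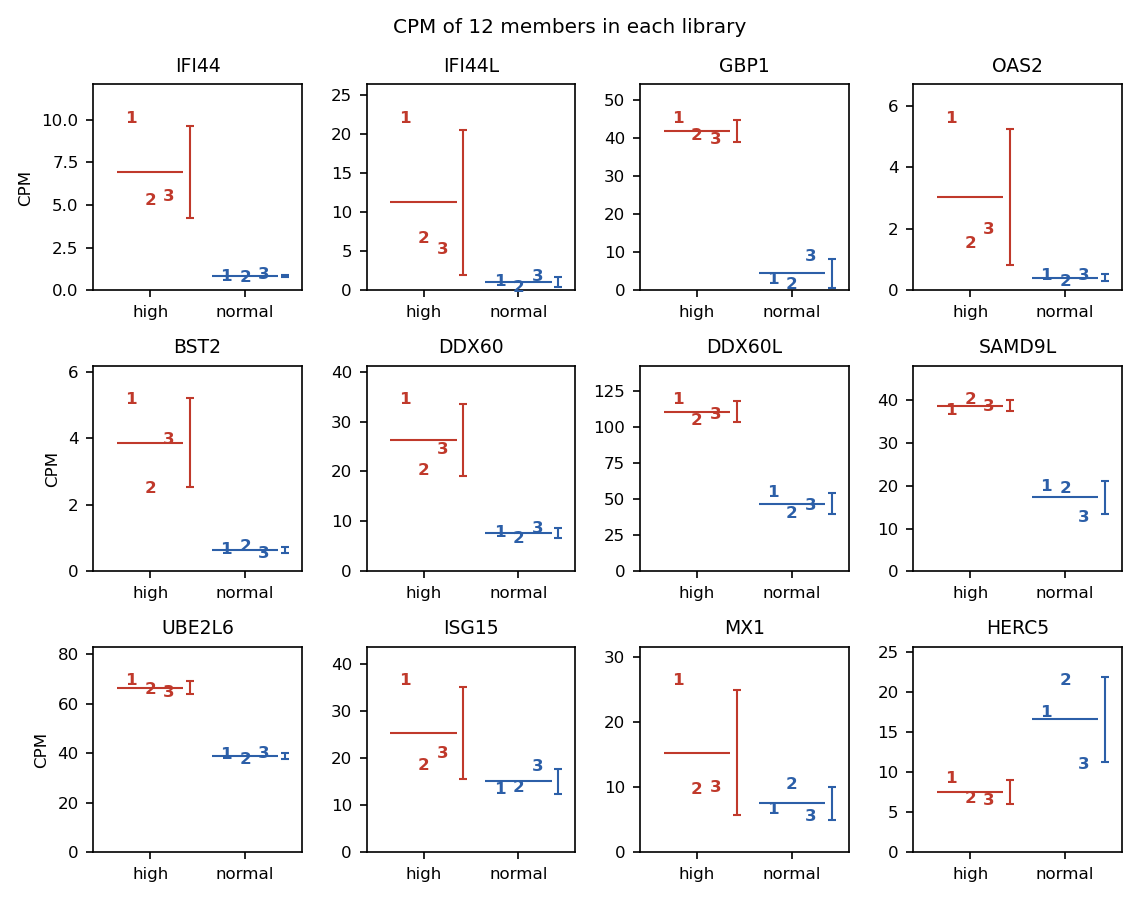
CPM (vertical axes, from 0) of 12 members in each library; digits mark libraries 1 to 3, high glucose in red on the left and normal glucose in blue on the right, with lines at the group means and bars of 1 SD. Library 1 is the highest red digit for IFI44, IFI44L, OAS2, ISG15 and MX1, whereas the 3 red digits lie together for GBP1, SAMD9L and UBE2L6, and HERC5 is lower in high glucose.

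ISG15 is a ubiquitin-like protein that is joined to other proteins, and the genes that attach, remove or extend this tag moved in different directions. UBE2L6, the conjugating enzyme for ISG15, had 69.3, 65.9 and 64.4 CPM in high glucose 1, 2 and 3, against 39.5, 37.5 and 40.0 CPM in normal glucose 1, 2 and 3. The libraries of each group lay close together, and UBE2L6 rose 1.7-fold (log2 change 0.77, SE 0.0982, edgeR adjusted p = 0.00483). USP18, which removes ISG15 and blocks receptor signalling, had 5.51, 3.18 and 3.17 CPM in high glucose 1, 2 and 3, against 1.17, 1.29 and 2.27 CPM in normal glucose 1, 2 and 3 and rose (log2 change 1.33, SE 0.361, edgeR adjusted p = 0.0432). HERC6, a ligase of the family that attaches ISG15 in mice, had 34.3, 17.9 and 19 CPM in high glucose 1, 2 and 3, against 6.69, 6.71 and 12.9 CPM in normal glucose 1, 2 and 3 and rose (log2 change 1.44, SE 0.36, edgeR adjusted p = 0.0333). HERC5, the main ligase for ISG15 in human cells, had 9.2, 6.71 and 6.51 CPM in high glucose 1, 2 and 3, against 17.4, 21.4 and 11 CPM in normal glucose 1, 2 and 3. It fell (log2 change -1.15, SE 0.274, edgeR adjusted p = 0.0288), and all high glucose values were below the normal glucose values, of which normal glucose 3 was the lowest. ISG15 itself had 36.3, 18.3 and 20.9 CPM in high glucose 1, 2 and 3, against 13.3, 13.7 and 18.1 CPM in normal glucose 1, 2 and 3 and was not called (log2 change 0.74, edgeR adjusted p = 0.108). TRIM25, a ligase that activates RIG-I and shares its locus with C17orf67, had an estimate of -0.50 on the log2 scale (edgeR adjusted p = 0.178). The locus overlaps a further C17orf67 locus on the same strand and DGKE on the opposite strand. Both fell (log2 changes -1.91 and -2.24, edgeR adjusted p = 0.0117 and 0.0182), and the part of their reads in the TRIM25 estimate was not tested.

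Of the PARP genes and DTX3L, 4 of 5 loci rose by modest amounts. DTX3L, a ubiquitin ligase that forms a complex with PARP9, had 123, 107 and 109.5 CPM in high glucose 1, 2 and 3, against 75.1, 62.9 and 74.4 CPM in normal glucose 1, 2 and 3 (log2 change 0.68, SE 0.118, edgeR adjusted p = 0.0113). PARP9, a macrodomain protein of the ADP-ribose polymerase family, had 58.2, 57.6 and 45.2 CPM in high glucose 1, 2 and 3, against 24.8, 29.2 and 38.3 CPM in normal glucose 1, 2 and 3 (log2 change 0.80, SE 0.19, edgeR adjusted p = 0.0281). These genes overlap on opposite strands, so that reads of 1 may have been counted for the other. PARP14, which transfers single ADP-ribose units, had 165, 128 and 127 CPM in high glucose 1, 2 and 3, against 103, 86.8 and 85.9 CPM in normal glucose 1, 2 and 3 (log2 change 0.61, SE 0.142, edgeR adjusted p = 0.0271). PARP10, another such enzyme, whose locus overlaps that of GRINA on the opposite strand, averaged 12.9 ± 1.09 CPM in high glucose and 8.66 ± 1.06 CPM in normal glucose (SD, n = 3 each) and rose (log2 change 0.57, SE 0.16, edgeR adjusted p = 0.0468). PARP12, an antiviral member of the family, averaged 80.5 ± 3.88 CPM in high glucose and 66.4 ± 14.3 CPM in normal glucose (SD, n = 3 each) and was not called (log2 change 0.28, edgeR adjusted p = 0.27).

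Guanylate-binding proteins are large GTPases that act on vacuoles of pathogens, and many of them answer to interferon gamma most strongly. GBP1 had 45, 40.7 and 39.6 CPM in high glucose 1, 2 and 3, against 2.99, 1.53 and 8.85 CPM in normal glucose 1, 2 and 3. The high glucose libraries differed little among themselves, normal glucose 3 was 3.92 times the mean of normal glucose 1 and 2, and GBP1 rose 9.37-fold (log2 change 3.23, SE 0.602, edgeR adjusted p = 0.0137). Without normal glucose 3 its log2 change was 4.21. GBP3 had 43, 42.9 and 39.6 CPM in high glucose 1, 2 and 3, against 23.4, 21.6 and 33.2 CPM in normal glucose 1, 2 and 3 and rose (log2 change 0.68, SE 0.179, edgeR adjusted p = 0.0381). GBP2, in a locus with GBP7, had 7.51, 6.8 and 5.28 CPM in high glucose 1, 2 and 3, against 1.21, 1.9 and 4.57 CPM in normal glucose 1, 2 and 3 (log2 change 1.35, edgeR adjusted p = 0.0883), again with no overlap between the groups. Without normal glucose 3 the GBP2 estimate was 2.07 (edgeR adjusted p = 0.00394).

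TRIM22, a ligase with activity against retroviruses in a locus with OR56B1, had 122, 121 and 129.6 CPM in high glucose 1, 2 and 3, against 95.5, 94.3 and 94.8 CPM in normal glucose 1, 2 and 3. Its change was small and its groups were narrow (log2 change 0.39, SE 0.0908, edgeR adjusted p = 0.0273). TRIM21, a cytosolic antibody receptor, averaged 22.1 ± 1.87 CPM in high glucose and 16.7 ± 1.76 CPM in normal glucose (SD, n = 3 each, log2 change 0.40, edgeR adjusted p = 0.0852), and the nuclear body genes SP100 and SP110 had estimates of 0.13 and 0.07 on the log2 scale (edgeR adjusted p = 0.496 and 0.752). RTP4, a chaperone of membrane receptors that also restrains viral RNA, had 1.24, 0.877 and 1.48 CPM in high glucose 1, 2 and 3, against 0.474, 0.35 and 0.228 CPM in normal glucose 1, 2 and 3 and rose 3.41-fold (log2 change 1.77, SE 0.388, edgeR adjusted p = 0.0221). LGALS3BP, a secreted glycoprotein, averaged 276 ± 33.9 CPM in high glucose and 388 ± 181 CPM in normal glucose (SD, n = 3 each, log2 change -0.49, edgeR adjusted p = 0.298), with normal glucose 2 well above the other libraries. PLSCR1, a lipid scramblase, and EPSTI1 had estimates of -0.42 and 0.34 on the log2 scale (edgeR adjusted p = 0.195 and 0.691).

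None of the members that encode the transcription factors of the pathway rose at the edgeR threshold, nor did any with DESeq2, while 1 was higher at an unadjusted p under 0.05. STAT2, which carries the signal from the type I receptor, had 104, 103 and 109 CPM in high glucose 1, 2 and 3, against 186, 147 and 136 CPM in normal glucose 1, 2 and 3. It fell (log2 change -0.57, SE 0.136, edgeR adjusted p = 0.029), with no overlap between the groups. IRF9, its DNA-binding partner, in a locus with RNF31 that overlaps PSME2 on the opposite strand, averaged 101 ± 9.28 CPM in high glucose and 84.3 ± 2.31 CPM in normal glucose (SD, n = 3 each, log2 change 0.26, edgeR adjusted p = 0.13). IRF1, IRF2 and IRF7 had estimates of -0.04, 0.07 and 0.16 on the log2 scale (edgeR adjusted p = 0.918, 0.708 and 0.718).

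**Figure D4:**
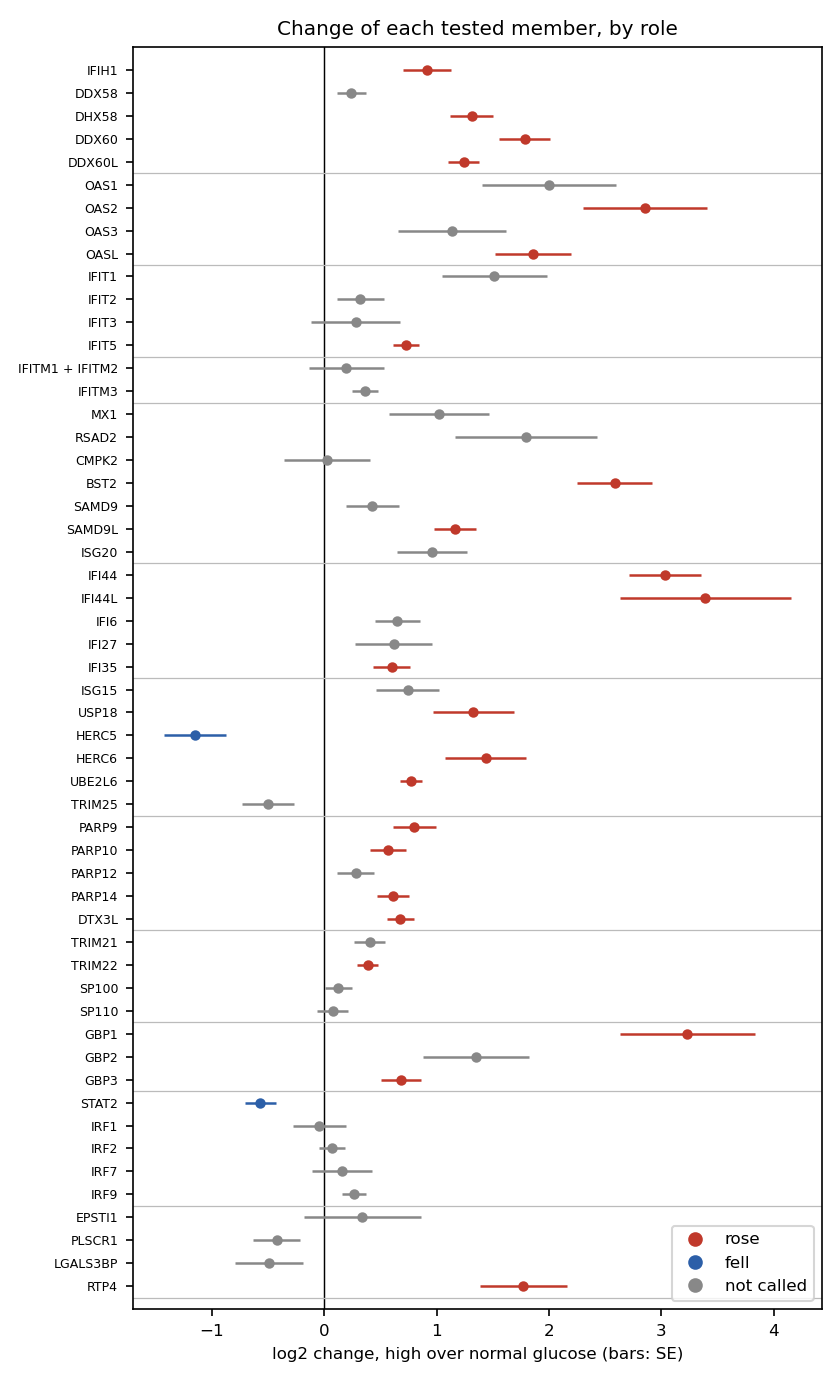
The log2 change of high over normal glucose (horizontal axis) for each tested member locus, ordered by role, with bars of 1 SE; red points rose, blue points fell and grey points were not called. The widest bars belong to IFI44L, RSAD2, GBP1 and OAS1, and the blue points are HERC5 (-1.15) and STAT2 (-0.57).

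The members did not vary evenly within a group. In high glucose 1 the value was the highest of its group at 42 of the 54 loci (77.8%), where this held for 33.9% of all tested loci. At 12 member loci (22.2%) high glucose 1 was over 1.5 times each of the other high glucose libraries, where this held for 6.5% of all tested loci. These 12 were OAS1, OAS2, OAS3, IFIT1, IFIT3, MX1, RSAD2, IFI44, IFI44L, ISG15, USP18 and HERC6. 5 of them rose and 7 were not called. Normal glucose 3 was the highest of its group at 31 loci (57.4%, against 37.3% of all tested loci) and over 1.5 times the others at 10 loci (18.5%, against 11.8%). That ratio was not particular to the members, since it held at 8 of 15 tested pigment epithelium and epithelial markers (53.3%), though at 0 of 19 MHC class I loci. 7 member loci met the criteria for both libraries, OAS1, OAS3, IFIT1, IFIT3, RSAD2, USP18 and HERC6. The share of all tested loci that met both was not counted. The median over members of log2 CPM relative to the normal glucose mean was 0.80, 0.63 and 0.60 in high glucose 1, 2 and 3, and -0.08, -0.08 and 0.16 in normal glucose 1, 2 and 3. The same medians over all tested loci lay between 0.00 and 0.04.

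**Figure D5:**
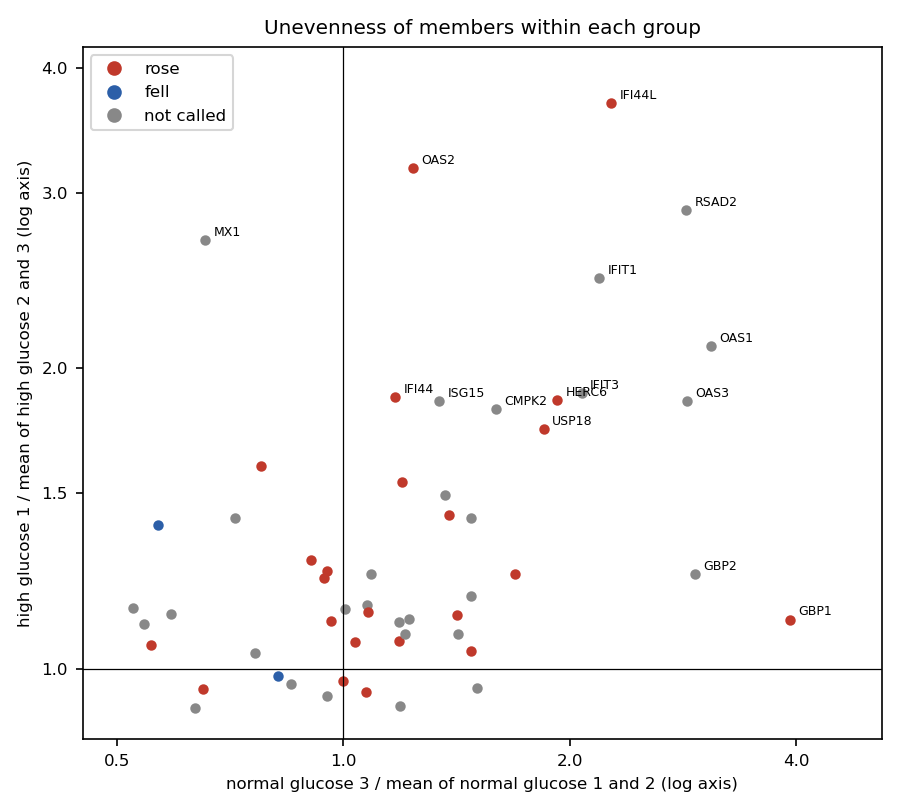
Each point is a tested member; the vertical axis is high glucose 1 divided by the mean of high glucose 2 and 3 and the horizontal axis is normal glucose 3 divided by the mean of normal glucose 1 and 2, both on log axes, with colours as the call. RSAD2, OAS1, IFIT1 and IFI44L lie high on both axes, MX1 on the vertical axis alone, and GBP1 and GBP2 on the horizontal axis.

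Leaving out both of these libraries, an alternative added after the values were seen, kept 21 of the 25 called members and called 30 in all, 26 that rose and 4 that fell, where 10.6% and 10.5% of all loci did so. IFI35, PARP10, PARP14 and RTP4 were no longer called (edgeR adjusted p between 0.058 and 0.11). 9 members were called in that fit and not with all libraries. OAS1, OAS3, IFIT1, RSAD2, IFI6, PARP12 and GBP2 were higher in high glucose, with edgeR adjusted p between 0.00675 and 0.0411, and TRIM25 and PLSCR1 were lower (edgeR adjusted p = 0.00879 and 0.0189). In single omissions, DDX58, IFITM3 and TRIM21 were also called without normal glucose 3 (edgeR adjusted p = 0.0485, 0.0371 and 0.0277) and ISG20 without normal glucose 1 (0.0383). The median log2 change of the 12 uneven loci was 1.48 with all libraries and 1.47 in the fit without both. For the other 42 loci it was 0.50 and 0.46. The 12 were picked by their high glucose 1 values, and 7 also met the criterion for normal glucose 3. These omissions can move estimates in opposite directions, so the near-equal medians do not show independence from high glucose 1. Without that library alone all 12 estimates were lower, with 0.94 for IFIT1 (1.51 with all libraries) and 0.78 for OAS3 (1.14). With each library left out in turn, DHX58, DDX60, DDX60L, BST2, SAMD9L, IFI44 and UBE2L6 were called every time, with edgeR adjusted p of at most 0.0456. IFIT5 was not called without high glucose 2 (0.0527), nor DTX3L without high glucose 1 (0.0544). OAS2 was not called without normal glucose 1 or 2 (0.0517 and 0.0555), and OASL without high glucose 1, 2 or 3 (0.0582, 0.0502 and 0.054). GBP1 was not called without high glucose 1, 2 or 3 or normal glucose 1 (at most 0.0523), and IFI44L not without high glucose 1 or 2 or normal glucose 1 or 2 (at most 0.0765). PARP14 and RTP4 lost the call without any high glucose library or normal glucose 2 (at most 0.0882 and 0.089). The other 10 called members, HERC5 and STAT2 among them, were called in 1 omission, that of normal glucose 3, with adjusted p of at most 0.172 in the others. An omission leaves fewer libraries for the test, and the background was lower in 5 of the 6 omissions. Without high glucose 1, 9 members rose and 0 fell in edgeR, where 3.12% of all loci rose and 3.09% fell. Without high glucose 2 the members' counts were 9 and 0 (2.77% and 2.62% of all loci), and without high glucose 3 they were 11 and 0 (2.97% and 2.73%). Without normal glucose 1 they were 13 and 0 (5.49% and 5.33%), without normal glucose 2 they were 11 and 0 (5.47% and 4.89%), and without normal glucose 3 they were 33 and 3 (14.8% and 13.9%). In the 5 omissions where 0 members fell, 2 or 3 were lower at an unadjusted p under 0.05. With all libraries, DESeq2 called 30 members that rose and 2 that fell, where 10.6% and 11.0% of all loci did so, and voom called 30 and 3 (14.0% each). A replicate block, for libraries that share only a number, left 15 that rose and 1 that fell (5.24% and 4.93%). A test for a log2 change above 1 left 2 that rose and 0 that fell (0.587% and 0.623%), and 0 were lower there at an unadjusted p under 0.05.

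The genes of interferons themselves were mostly at or under the floor of 12 counts. Of 21 interferon gene loci, 18 had at most 12 counts in every library. IFNB1, the first type I interferon made by infected cells, had 0 counts in each high glucose library, against 4, 0 and 7 counts in normal glucose 1, 2 and 3. IFNA1, another type I interferon, had 16, 32 and 20 counts in high glucose 1, 2 and 3, against 1, 12 and 4 counts in normal glucose 1, 2 and 3, and was not called (log2 change 1.96, edgeR adjusted p = 0.168). Its groups did not overlap, and all its normal glucose counts were at or under the floor. IFNE, an interferon made by epithelia of the reproductive tract, had 1.88, 1.47 and 1.68 CPM in high glucose 1, 2 and 3, against 0.439, 0.711 and 0.481 CPM in normal glucose 1, 2 and 3. It rose (log2 change 1.62, SE 0.299, edgeR adjusted p = 0.0133), at a level near 1 CPM. None of the 5 receptor loci was called by edgeR or DESeq2, and 1 had an unadjusted p under 0.05 in edgeR. With voom 1 receptor locus rose. Of all tested loci, 9.75% rose and 9.86% fell in edgeR. IFNAR1, a chain of the type I receptor, averaged 55.5 ± 4.52 CPM in high glucose and 63.8 ± 21.5 CPM in normal glucose (SD, n = 3 each, log2 change -0.20, edgeR adjusted p = 0.616). JAK2, the kinase of the interferon gamma receptor, was the 1 called gene of 5 in the kinase and STAT list, and it fell, with 16.7, 17.2 and 14.9 CPM in high glucose 1, 2 and 3, against 36.1, 33.8 and 21.4 CPM in normal glucose 1, 2 and 3 (log2 change -0.90, SE 0.21, edgeR adjusted p = 0.0264).

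Other genes of the pathway were called in both directions. Over all tested loci 9.75% rose and 9.86% fell, and no list was tested against these shares. Among 12 negative regulators 2 rose and 2 fell. PTPN1, a phosphatase that acts on JAK2 and TYK2, had 231, 223 and 244 CPM in high glucose 1, 2 and 3, against 93.7, 81.9 and 114 CPM in normal glucose 1, 2 and 3 and rose (log2 change 1.27, SE 0.139, edgeR adjusted p = 0.00316). TRIM24, a repressor of interferon target genes known from mouse liver, fell (log2 change -0.58, edgeR adjusted p = 0.0265). Among 13 genes that lead from sensing to interferon production 3 rose and 2 fell. RNF135, a ligase that activates RIG-I, had 20.3, 19.5 and 20.1 CPM in high glucose 1, 2 and 3, against 9.66, 9.92 and 10.5 CPM in normal glucose 1, 2 and 3 (log2 change 1.0, SE 0.122, edgeR adjusted p = 0.00439). TLR3, the endosomal sensor of double-stranded RNA, averaged 14.9 ± 1.69 CPM in high glucose and 6.73 ± 0.878 CPM in normal glucose (SD, n = 3 each) and rose (log2 change 1.15, edgeR adjusted p = 0.00734).

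Genes of antigen presentation and DNA sensing, which interferons also regulate, were called in both directions, where 9.75% of all tested loci rose and 9.86% fell. Of 19 tested loci of MHC class I and peptide loading, 4 rose and 3 fell, with a median log2 change of 0.34. TAPBPL, an editor of peptide loading in a locus with CD27, rose (log2 change 0.85, edgeR adjusted p = 0.0107), and CALR, a chaperone of the same step and of the endoplasmic reticulum at large, fell (log2 change -1.38, edgeR adjusted p = 0.0207). Of 10 tested DNA sensing loci, 1 rose and 2 fell, with a median of 0.19. SAMHD1, a nuclease of deoxynucleotides, averaged 47.2 ± 5.41 CPM in high glucose and 28.9 ± 4.94 CPM in normal glucose (SD, n = 3 each, log2 change 0.70, edgeR adjusted p = 0.0262). CGAS, the cytosolic DNA sensor, had 1.04, 1.17 and 0.668 CPM in high glucose 1, 2 and 3, against 3, 2.89 and 3.28 CPM in normal glucose 1, 2 and 3 and fell (log2 change -1.67, SE 0.273, edgeR adjusted p = 0.00926). Whether these lists differ from the members was not tested.

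Other features of the libraries differed with the groups as well. The libraries held 81616741 to 87748820 counts. Markers of the labelled cell type were uneven: RPE65 and TYR, which define mature pigment epithelium, had at most 4 and 12 counts in any library, whereas KRT8 and KRT18 were abundant. KRT18, an epithelial keratin, had 860.3, 949 and 885 CPM in high glucose 1, 2 and 3, against 187, 187 and 359 CPM in normal glucose 1, 2 and 3 (log2 change 1.88, edgeR adjusted p = 0.00636). For this and the other marker lists, the shares over all tested loci were 9.75% that rose and 9.86% that fell. The summed CPM of 19 pigment epithelium and epithelial markers was 3455 to 3828 in high glucose and 1040 to 2088 in normal glucose, with 5 of 15 tested markers higher and 1 lower. Most of that sum came from KRT8, KRT18, EZR and SLC16A3, with means of 1243, 898, 879.5 and 466 CPM in high glucose and 394, 245, 432 and 165 CPM in normal glucose. BEST1, a chloride channel of the pigment epithelium, averaged 2.02 ± 0.763 CPM in high glucose and 9.3 ± 3.56 CPM in normal glucose (SD, n = 3 each) and fell (log2 change -2.20, edgeR adjusted p = 0.0113). MITF, PMEL and SERPINF1, which also mark pigment cells or this epithelium, were below normal glucose in every high glucose library and were not called (log2 changes -0.74, -0.28 and -0.32). RDH5, in a locus with BLOC1S1, lay above normal glucose in every high glucose library and was not called either (0.38). LRAT, OTX2, RLBP1, TYRP1 and CDH1 overlapped between the groups (0.20, 0.16, -0.34, -0.05 and -0.46). The cadherin CDH3 rose (log2 change 3.08, edgeR adjusted p = 0.0138). Of 12 immune cell markers, AIF1, CD3E and MS4A1 had a count of 0 in every library and PTPRC, carried by all white blood cells, at most 8 counts. ITGAM, an integrin chain of myeloid cells, was the 1 called marker of 6 tested, with 27, 31 and 24 counts in high glucose 1, 2 and 3, against 0, 4 and 0 counts in normal glucose 1, 2 and 3 (edgeR adjusted p = 0.0451). The summed CPM of the 12, 429 to 547 in high glucose and 345 to 477 in normal glucose, came almost wholly from CD68, whose locus also holds EIF4A1. 12 fibroblast markers summed to 284 to 292 CPM in high glucose and 238 to 357 CPM in normal glucose, with 1 higher and 2 lower. The part of these markers in the members' changes was not tested.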

How the data were processed

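RNA of ARPE-19 cells was extracted with Trizol and read in pairs by a NovaSeq machine, per the labels' protocols. Bowtie 0.12.2 and mm8, a mouse build, are named in the submitters' processing notes, while the identifiers in the table are human, and the counting tool and the use of strand are not given in the sources used here. The authors deposited 1 table with a raw count and an FPKM value per locus and library, per the file headers. The deposited counts were used for the tests, and the deposited FPKM values for levels between genes and for 2 alternatives (log2 of FPKM plus 1 or 0.1, limma 3.58.1). Values of 4 (9555) were more frequent than values of 3 (4210) or 5 (2659), so 1 fragment may have been counted 4 times, and the floor was set at 3 fragments or 12 counts per library. Floors cover counting error only. The 37 mitochondrial loci are listed at 0 and were left out.

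Members were read from rows with an annotated transcript by gene symbol. 10 members share a locus with another gene name. Loci were filtered with filterByExpr and tested with edgeR 4.0.16 (TMM, glmQLFit, glmQLFTest, 2-sided, group only) in R 4.3.3, with Benjamini-Hochberg adjustment over 25025 loci. Members with an adjusted p under 0.05 are called "rose" or "fell". CPM uses TMM library sizes, and SE is the size of the log2 change over the root of its F statistic. DESeq2 1.42.0, voom with a weight per library, other scalings and filters, counts divided by 4, a replicate block and omitted libraries were alternatives. The code was tested on simulated data, where 21% of loci changed 2-fold and 81% of those changed 4-fold were called in the right direction. In that run 7 unchanged loci were called. Far fewer loci were changed there than were called in the data, so these shares may differ in the data. A member that was not called may still have changed. 1 gene of the kinase and STAT list is not reported here. The members and gene lists were chosen with earlier results of these data known. All called members are described, with the most abundant member of each role that was not called and those with a log2 change of at least 1, and the rest are given briefly. Between libraries of the same number, deviations from the group mean had correlations of -0.02, 0.00 and -0.01 for numbers 1, 2 and 3. Libraries of unlike numbers were not compared, so these values cannot settle whether the libraries were paired.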

Additional observations from a re-analysis of the deposited data

How the results depend on the processing

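With each library left out in turn, 9 to 33 members rose and 0 to 3 fell (edgeR, 28 to 39 and 2 to 4 at an unadjusted p under 0.05), and 1421 to 7615 loci were called in all. The replicate block, for libraries that share only a number, gave 15 members that rose, 1 that fell and 2545 loci. A minimum log2 change of 1 left IFI44 and BST2, with 2 members that rose, 0 that fell (0 at an unadjusted p under 0.05) and 303 loci. Log2(FPKM + 1) gave 1 member that fell and a median of 0.39, because the added 1 shrinks the change of low genes. 4 members fell without high glucose 1 and normal glucose 3. The median stayed between 0.61 and 0.74 over the omissions. DESeq2 called 30 members that rose and 2 that fell, and voom 30 and 3. IFIT3 changed sign without high glucose 1, and its estimate ranged from -0.092 to 0.72 over the omissions. The IFITM1 and IFITM2 locus (-0.12 without normal glucose 2), CMPK2 (-0.32), SP110 (-0.04) and IRF7 (-0.06, each without high glucose 1) and IRF1 (0.15 without high glucose 2), none of them called, also changed sign. Scaling by DESeq2 size factors, upper quartile or library totals kept all 25 calls. Of the 25 called members, 13 to 16 lost their call in each omission but that of normal glucose 3. In that omission 10 of the 41 named members gained a call, and the cause was not tested. MX2 and XAF1 were at or under 12 counts in every library, and whether deeper sequencing would detect them was not tested.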
